A study of Mus musculus with 9 samples.

Results

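Genes of programmed cell death were examined in the retina of albino mice kept under white LED light of either of 2 colour temperatures or in a dark environment. The list held 39 genes of apoptosis, necroptosis, the inflammasome and the calpains, and each gene was represented by 1 probe set, the brightest of those annotated to that gene alone. Such a probe set was found for 36 of the 39 genes, among 18193 genes with one on the array. Bax, Trp53 and Ripk1 were not analysed here. A further 7 genes (Pmaip1, Fas, Ripk3, Mlkl, Casp1, Casp4 and Casp12) had a mean log2 signal over the 9 arrays below 5.91, the 40th percentile of probe set means, and were described but not tested. The other 29 were tested together with all 12765 genes above that value.

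Expression was measured on 9 Affymetrix Mouse Genome arrays. White LEDs lit the cages of 2 groups, at a colour temperature of 7378K (a cold, bluer white) or 2954K (a warm white), and the control group was raised in relative darkness. All were female BALB/c mice (Babl/c in the labels), an albino strain, aged 10 weeks, kept so for 14 days, and the labels state 12 h with and 12 h without light for all groups. The labels give 1000 lx for the LED lights and no illuminance for the controls. Each group had 3 arrays, and each array held RNA of 3 pooled right-eye retinas, so values of single animals are averaged within an array and p-values measure the spread between pools. In such tissue pools, fewer cells of a type and less RNA per cell cannot be told apart. Arrays are named by group and number.

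Apoptosis can start inside the cell, when BH3-only proteins release the pore formers of the BCL2 family and mitochondria leak cytochrome c into the apoptosome, or outside it, when death receptors activate caspase 8. Necroptosis runs from the same receptors through the RIPK kinases to the membrane protein MLKL, and the inflammasome activates caspase 1 to mature interleukins. Loss of photoreceptors by such routes is a known outcome of intense light in albino rodents. Caspases and most BCL2 proteins are regulated after translation, so that transcript levels do not measure their activity.

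The tissue was labelled as neurosensory retina, and all 7 rod markers examined (Gnat1, Sag, Pde6g, Prph2, Cngb1, Nrl and Rom1) lay above the intensity filter. The pigment epithelium gene Rpe65 was also bright on every array, between 9.73 and 11.83 on the log2 scale. The lens crystallin Crybb2 ranged from 3.08 to 14.75 and was highest in control 3. In the LED groups it was also highest in array 3, at 12.63 for 2954K and 9.99 for 7378K. The 3' minus 5' log2 difference of the Gapdh and beta-actin control probe sets, which grows as 5' ends are lost, was 1.55 to 1.80 in the 7378K arrays, 0.21 to 2.78 in the 2954K arrays, against 0.20 to 0.42 in the controls.

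Few of the tested genes passed the test, and those that did were mainly the GADD45 stress genes. Gadd45b rose in both LED groups, by its brightest probe set 3.55-fold for 7378K and 3.12-fold for 2954K. Its other probe sets rose less, by 0.90 and 0.81 on the log2 scale for 7378K and by 0.93 and 0.51 for 2954K. The paralogue Gadd45a fell under 7378K light, and Xiap, a caspase inhibitor, fell slightly under 7378K light. The Gadd45a call ended without 7378K 1, and the Xiap call without any 1 of the 6 arrays compared. No tested gene of the BCL2 family, the caspases, the death receptors, the inflammasome or the calpains passed the test on the list.

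GADD45 proteins are small stress sensors that bind kinases and cell cycle regulators. Gadd45a is a known p53 target, and Gadd45b is known to be induced by NF-kB and cytokine signalling. Because the paralogues moved in opposite directions, their promoters are shown, as the 250 bases before and 50 bases after the annotated start (RefSeq, GRCm38.p6), 5′ to 3′ on the gene's own strand. The Gadd45b window lies at chr10:80929841-80930140 on the plus strand, and the Gadd45a window at chr6:67037358-67037657 on the minus strand. Capitals mark matches, on either strand, to the motifs named in the text that follows the sequences.
Gadd45b: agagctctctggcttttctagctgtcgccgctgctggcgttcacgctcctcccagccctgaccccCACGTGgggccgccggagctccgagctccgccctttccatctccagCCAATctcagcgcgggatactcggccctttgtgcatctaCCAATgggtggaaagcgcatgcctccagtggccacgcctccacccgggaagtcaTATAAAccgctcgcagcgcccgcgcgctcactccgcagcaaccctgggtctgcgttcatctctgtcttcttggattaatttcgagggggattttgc
Gadd45a: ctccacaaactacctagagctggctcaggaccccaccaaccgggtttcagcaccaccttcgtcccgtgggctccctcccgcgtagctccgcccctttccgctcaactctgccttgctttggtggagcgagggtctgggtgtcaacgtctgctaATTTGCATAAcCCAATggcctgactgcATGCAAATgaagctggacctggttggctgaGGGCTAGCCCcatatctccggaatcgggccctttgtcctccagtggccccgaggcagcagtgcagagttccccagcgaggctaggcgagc
The Gadd45b window held CCAAT at -139 to -135 and at -100 to -96, the TATA box letters TATAAA at -46 to -41, and the E-box letters CACGTG at -185 to -180, counted from the start. The Gadd45a window held the octamer ATGCAAAT at -70 to -63 and, on the opposite strand, at -97 to -90. It further held CCAAT at -86 to -82, the C/EBP letters TTGCNNAA at -95 to -88, overlapping an octamer, and a p53 half-site at -40 to -31. Of 32851 promoter windows of the same length, 37.4% held CCAAT, 13.6% TATAAA, 7.15% CACGTG, 1.74% the octamer, 10.8% TTGCNNAA and 8.36% a p53 half-site. The letters TTCNNNGAA (STAT, in 8.3% of windows), TGANTCA (AP-1, 7.81%) and TGACGTCA (CRE, 1.79%) and the NF-kB consensus (4.51%) were not matched in either window, which says only that these letters are not there.

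Gadd45b (chromosome 10, 80930091 to 80932204) had a log2 signal of 9.80, 10.02 and 9.54 in 7378K arrays 1 to 3 and of 9.54, 9.17 and 10.08 in the 2954K arrays, against 7.73, 8.01 and 8.13 in the controls. All 6 LED arrays lay above all 3 controls, and the LED groups overlapped. The difference was 1.83 ± 0.22 (SE) for 7378K against control (limma adjusted p = 0.00061) and 1.64 ± 0.22 for 2954K against control (adjusted p = 0.002). Without any single array the calls held, with adjusted p up to 0.0073 for 7378K and 0.015 for 2954K. After adjustment for the 3' minus 5' difference the log2 differences were 1.71 (adjusted p = 0.018) and 1.55 (adjusted p = 0.019). The gene had 3 probe sets. The second, at a mean of 8.62, differed by 0.90 for 7378K and 0.93 for 2954K, and the third, at 6.65, by 0.81 and 0.51. All 3 had higher means in the LED groups, and the brightest differed most. With the mean of the probe sets the difference was 1.18 (adjusted p = 0.016) for 7378K and 1.03 (adjusted p = 0.06) for 2954K, so that the size depended on the probe set and the 2954K call ended.

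Gadd45a (chromosome 6, 67035096 to 67037407) measured 10.04, 10.27 and 10.22 in the 7378K arrays, 10.25, 10.52 and 10.35 in the 2954K arrays, against 10.89, 10.76 and 10.80 in the controls. The 3 controls lay above all 6 LED arrays. Its only probe set fell by 0.64 on the log2 scale (SE 0.11) under 7378K light, which is 1.56-fold (adjusted p = 0.0076). Under 2954K light the difference was -0.44 ± 0.11 (SE) and did not pass (adjusted p = 0.094). Without 2954K 2 it became -0.52 and passed (adjusted p = 0.021). The 7378K call ended without 7378K 1 (adjusted p = 0.058) and with the 3' minus 5' covariate, where the difference was -0.51 (adjusted p = 0.10). All 7378K arrays also had a higher 3' minus 5' difference than the controls, as given above. When the LED groups were averaged and set against control, Gadd45a fell by 0.54 (adjusted p = 0.0082, and 0.064 without control 1) and Gadd45b rose by 1.73 (adjusted p = 0.00026). In that average, 2 of the 29 genes were called (6.9%, beside 3.45% of all genes), 1 higher (beside 2.41%) and 1 lower (beside 1.05%), 10 had an unadjusted p under 0.05 (34.5%, beside 21.6%), 5 did not overlap with the controls (17.2%, beside 10.5%) and 19 lay above 0 (65.5%, beside 54%).

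The other measured genes of the p53 axis did not pass. Cdkn1a, the p53 target that stops the cell cycle, measured 7.92, 7.79 and 7.88 in the 7378K arrays, 7.70, 7.49 and 7.23 in the 2954K arrays, against 7.54, 7.42 and 7.28 in the controls. The 7378K arrays lay above both other groups, with a difference from control of 0.45 (adjusted p = 0.22), and the 2954K arrays overlapped the controls (0.06, adjusted p = 0.93). Mdm2, the ubiquitin ligase of p53, had means of 10.16 under 7378K light, 9.99 under 2954K light and 10.29 in control (adjusted p = 0.58 and 0.35). A second, dimmer Mdm2 probe set differed by -2.04 and -1.38. It measured 6.70, 6.73 and 7.05 in the 7378K arrays, 5.86, 9.38 and 7.22 in the 2954K arrays, against 8.93, 9.23 and 8.45 in the controls. Thus 2954K 2, the array with the lowest 3' minus 5' difference of its group, lay above every control. The part of that difference in these values was not tested.

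**Figure D1:**
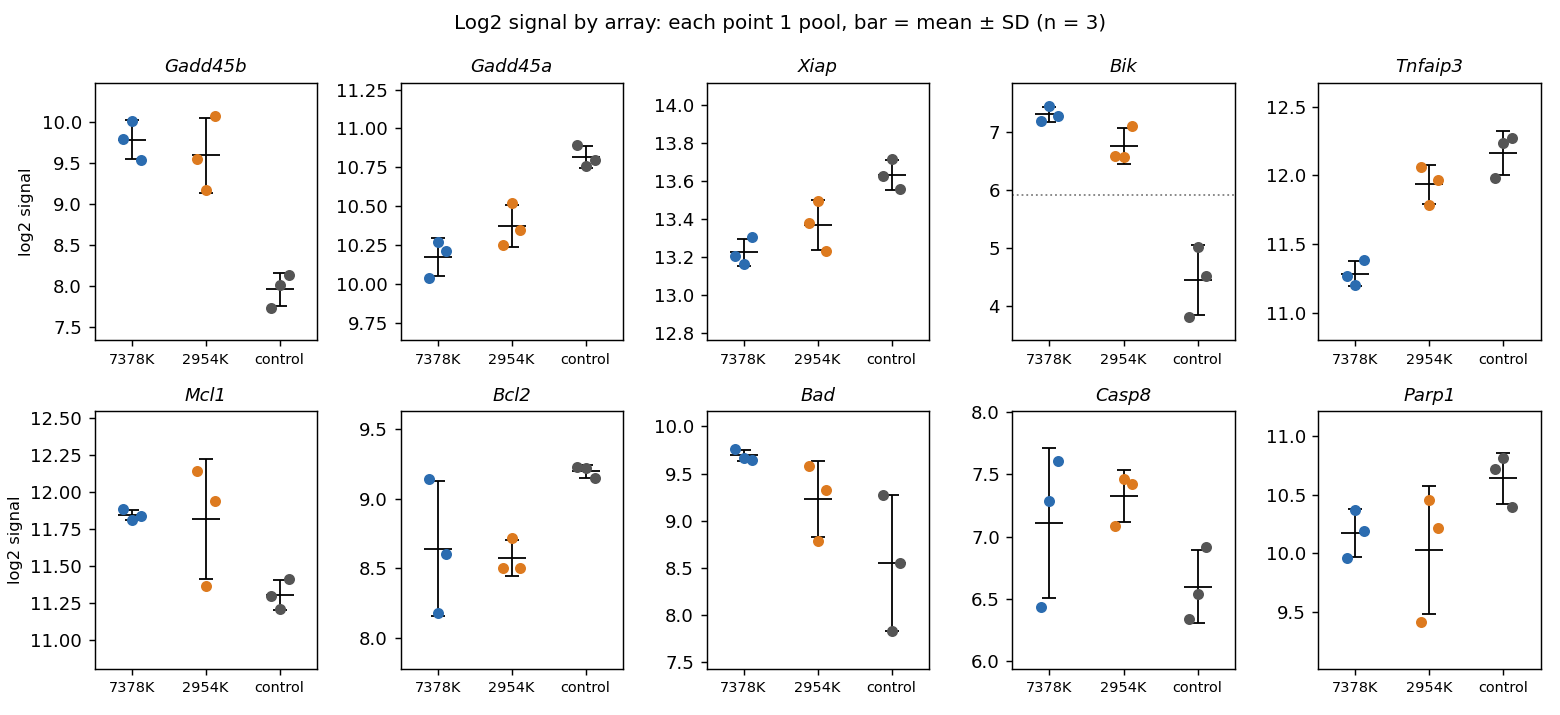
Log2 signal of 10 genes in each array. Points are arrays (each a pool of 3 retinas), bars are mean ± SD (n = 3), the y axes differ between panels and do not start at 0, and the dotted line, where in range, is the intensity filter at 5.91. Gadd45b and Bik are higher and Gadd45a and Xiap lower in all 6 LED arrays than in the 3 controls, and Tnfaip3 is lower in the 7378K arrays than in both other groups.

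The question of the first comparison was what 7378K light changed relative to the dark environment. Of the 29 tested genes 1 rose (beside 2.36% of all genes), 2 fell (beside 1.16%) and 26 did not pass, which is 10.3% called, beside 3.52% of all 12765 genes. Of the 29, 20 lay above 0 (69%, beside 56%). The groups did not overlap for 13 of the 29 (44.8%), beside 36.4% of all genes. An unadjusted p under 0.05 was reached by 11 (37.9%, beside 22.6%). The median log2 difference was 0.19, beside 0.04 over all genes, and the median size of the difference 0.41, beside 0.21. These shares rest on few genes: 1 gene was called without 7378K 1, and 5 without 2954K 1 or without 2954K 2, where Mcl1 and Bad joined the 3.

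The second comparison used the 2954K arrays and again the 3 controls. Of the 29 genes 1 rose (beside 1.03% of all genes), 0 fell (beside 0.188%) and 28 did not pass (3.45% called, beside 1.22%). Of the 29, 17 lay above 0 (58.6%, beside 51.8%). The groups did not overlap for 7 genes (24.1%, beside 15.2%), and 9 had an unadjusted p under 0.05 (31%, beside 13.1%). The median difference was 0.06, beside 0.01, and its median size 0.25, beside 0.17. Without 2954K 2, the array with the lowest 3' minus 5' difference of its group, 4 genes were called, namely Gadd45b and Mcl1 (higher), Gadd45a (lower) and Parp1, whose probe sets disagree in direction. Both comparisons share the controls, so that their values are not independent of each other.

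**Figure D2:**
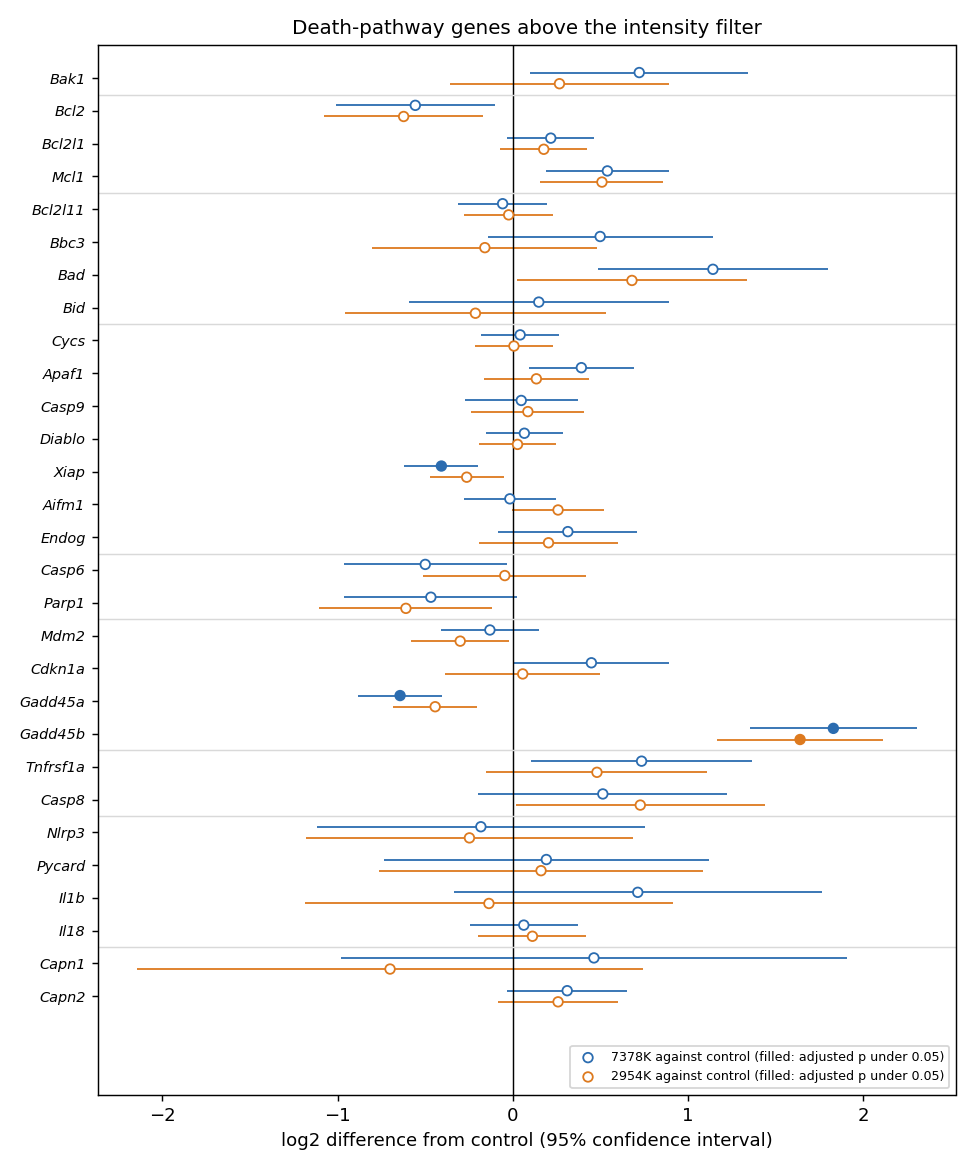
Log2 difference from control with its 95% confidence interval for the 29 tested genes, 7378K in blue above 2954K in orange, in groups by role. Filled circles passed an adjusted p of 0.05, namely Gadd45b in both comparisons and Gadd45a and Xiap for 7378K, and open circles did not pass.

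Of the anti-apoptotic BCL2 proteins, which hold the pore formers in check, Mcl1 was higher and Bcl2 lower in the LED groups without passing the test. Mcl1, a short-lived guardian of the mitochondrial membrane, measured 11.88, 11.81 and 11.84 in the 7378K arrays, 12.14, 11.36 and 11.94 in the 2954K arrays, against 11.30, 11.21 and 11.41 in the controls. The 7378K arrays lay above the controls, and 2954K 2 lay among them. The difference was 0.54 (95% confidence interval 0.19 to 0.89, adjusted p = 0.085) for 7378K and 0.51 (0.16 to 0.86, adjusted p = 0.19) for 2954K. Without 2954K 2 both passed (adjusted p = 0.0051 and 0.0027), and without 2954K 1 the 7378K difference passed (adjusted p = 0.021). Of its 6 probe sets, 4 were above control for 7378K and 5 for 2954K, over a range of -0.32 to 0.65 and of -0.23 to 0.51. Those at means of 11.66, 11.45 and 11.19 differed by 0.54, 0.60 and 0.65 for 7378K and by 0.51, 0.51 and 0.49 for 2954K. Those at 11.39, 10.23 and 7.75 differed by 0.16, -0.14 and -0.32 for 7378K and by 0.01, 0.16 and -0.23 for 2954K. The size thus depended on the probe set.

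Bcl2, the founding survival protein of the family, measured 9.14, 8.18 and 8.60 in the 7378K arrays, 8.50, 8.72 and 8.50 in the 2954K arrays, against 9.23, 9.22 and 9.15 in the controls. All LED arrays lay below the controls, although 7378K 1 did so by little. The difference was -0.56 (adjusted p = 0.15) for 7378K, -0.62 (adjusted p = 0.22) for 2954K and -0.59 (adjusted p = 0.091) for both LED groups together, where it passed without 2954K 2 (adjusted p = 0.048) or 7378K 1 (adjusted p = 0.03). All 5 Bcl2 probe sets were lower for 7378K and 4 of 5 for 2954K. Bcl2l1, which encodes BCL-XL, measured 10.18, 10.08 and 10.03 in the 7378K arrays, 10.22, 9.93 and 10.02 in the 2954K arrays, against 9.91, 9.77 and 9.95 in the controls. Its difference was 0.22 (95% confidence interval -0.03 to 0.46) for 7378K and 0.18 (-0.07 to 0.42) for 2954K.

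Among pore formers and BH3-only proteins, Bad and Bak1 were higher under 7378K light, below the threshold of the test. Bak1, a pore former of the outer mitochondrial membrane, had a mean of 7.58 under 7378K light, 7.13 under 2954K light and 6.86 in control (adjusted p = 0.17 and 0.72). Bad, a BH3-only protein switched off by survival kinases, ranged from 9.65 to 9.76 in the 7378K arrays, from 8.79 to 9.58 in the 2954K arrays and from 7.82 to 9.28 in the controls. Its difference for 7378K was 1.14 (adjusted p = 0.058), which became 1.51 and passed without control 1 (adjusted p = 0.014), and also passed without 2954K 1 or 2954K 2 (adjusted p = 0.029 each). The second Bad probe set differed by 0.21, so that the size rested on the brighter one.

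Bbc3, which encodes PUMA, a p53-induced BH3-only protein, measured 7.61, 7.28 and 6.97 in the 7378K arrays, 6.97, 6.47 and 6.43 in the 2954K arrays, against 6.52, 6.73 and 7.10 in the controls. It overlapped between all groups. Bid, cut by caspase 8 to link death receptors to mitochondria, differed by 0.15 for 7378K and -0.21 for 2954K. Bcl2l11, which encodes BIM, differed by -0.06 and -0.02 (95% confidence interval -0.31 to 0.20 and -0.28 to 0.23). These intervals are of its brightest probe set only. All 3 Bcl2l11 probe sets above the filter were below control in both comparisons, down to -0.57 for 7378K and -0.48 for 2954K. Pmaip1, which encodes NOXA, was dim: it measured 2.56, 3.92 and 5.88 in the 7378K arrays, 4.89, 4.99 and 4.56 in the 2954K arrays, against 1.72, 3.36 and 2.39 in the controls. The 2954K arrays lay above the controls, but with no intensity filter the difference did not pass (adjusted p = 0.38).

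**Figure D3:**
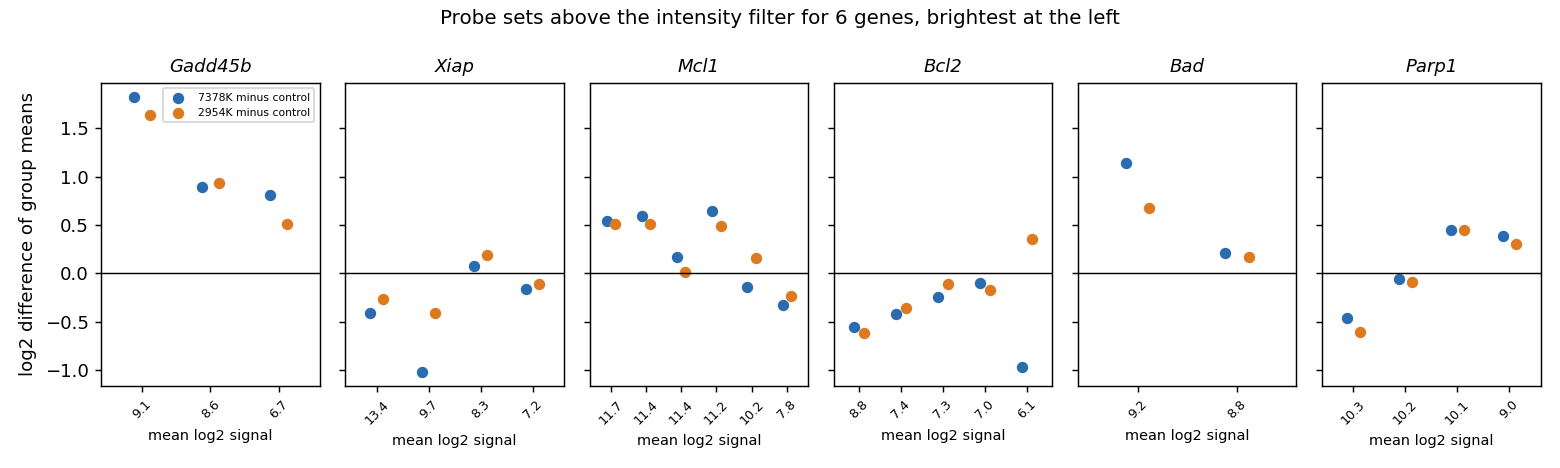
Log2 difference from control of each probe set above the intensity filter for 6 genes, 7378K in blue and 2954K in orange, against the mean log2 signal of the probe set, brightest at the left. All probe sets of Gadd45b and Bad lie above 0, those of Mcl1, Xiap and Parp1 lie on both sides, and those of Bcl2 lie below 0 except the dimmest for 2954K.

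In the mitochondrial arm, Xiap fell under 7378K light and the remaining genes did not pass. Xiap, the X-linked inhibitor that binds caspases (chromosome X, 42059613 to 42109664), measured 13.21, 13.16 and 13.30 in the 7378K arrays, 13.38, 13.50 and 13.23 in the 2954K arrays, against 13.62, 13.71 and 13.56 in the controls. The 3 controls were the highest arrays. The gene fell by 0.41 on the log2 scale (SE 0.10) under 7378K light, which is 1.33-fold (adjusted p = 0.041), and differed by -0.26 under 2954K light (adjusted p = 0.27). The call ended without any 1 of the 6 arrays compared, with adjusted p of 0.17, 0.15 and 0.097 without 7378K 1, 2 and 3 and of 0.12, 0.20 and 0.06 without controls 1, 2 and 3. It also ended with the 3' minus 5' covariate (adjusted p = 0.22), with the mean of the probe sets (adjusted p = 0.28), with no intensity filter (adjusted p = 0.075) and without the intensity trend (adjusted p = 0.10). Of the 4 probe sets above the filter, 3 were below control for 7378K and 1 above, at 0.08. The second brightest, at a mean of 9.66, differed by -1.02 for 7378K and -0.42 for 2954K, so that the size depended on the probe set.

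Cycs, which encodes cytochrome c, differed by 0.04 (95% confidence interval -0.18 to 0.26) for 7378K and 0.01 (-0.21 to 0.23) for 2954K. Diablo, the released antagonist of XIAP, differed by 0.07 (-0.15 to 0.29) and 0.03 (-0.19 to 0.25). For these transcripts the intervals leave out a change of the size seen in Gadd45a. Casp9, the initiator caspase of the apoptosome, measured 9.54, 9.70 and 9.77 in the 7378K arrays, 9.78, 9.48 and 9.86 in the 2954K arrays, against 9.59, 9.42 and 9.87 in the controls, which overlapped. Apaf1, the scaffold of the apoptosome, was ordered by group, at 8.94, 9.24 and 8.96 in the 7378K arrays, 8.74, 8.83 and 8.81 in the 2954K arrays, against 8.72, 8.68 and 8.57 in the controls, with a difference of 0.39 for 7378K (adjusted p = 0.13).

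Aifm1 and Endog encode mitochondrial proteins that act on DNA without caspases when released. Aifm1 measured 10.23, 10.25 and 10.21 in the 7378K arrays, 10.62, 10.37 and 10.53 in the 2954K arrays, against 10.39, 10.34 and 10.02 in the controls. The 7378K arrays lay below the 2954K arrays, and the controls overlapped both. Endog averaged 9.98 under 7378K light, 9.87 under 2954K light and 9.67 in control (adjusted p = 0.33 and 0.67 against control). Casp6, an executioner caspase, had means of 7.40 under 7378K light, 7.86 under 2954K light and 7.90 in control (adjusted p = 0.19 and 0.95).

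Parp1, a DNA damage sensor that caspases cut, gave probe sets that disagreed in direction. The brightest measured 9.96, 10.37 and 10.19 in the 7378K arrays, 9.42, 10.45 and 10.22 in the 2954K arrays, against 10.71, 10.81 and 10.39 in the controls, a difference of -0.47 (adjusted p = 0.24) for 7378K and -0.61 (adjusted p = 0.28, and 0.046 without 2954K 2) for 2954K. Its other 3 probe sets above the filter reached 0.44 and 0.45, so no direction is given for the gene. Among the 11 listed genes with at least 2 probe sets above the filter, all probe sets pointed one way for 7 genes for 7378K and for 5 genes for 2954K.

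Death receptor genes did not pass, and the necroptosis genes were too dim to test. Tnfrsf1a, the main receptor of tumour necrosis factor, ranged from 9.11 to 9.62 in the 7378K arrays, 8.84 to 9.25 in the 2954K arrays, against 7.81 to 9.12 in the controls, with differences of 0.74 (adjusted p = 0.16) and 0.48 (adjusted p = 0.50). Casp8, the initiator caspase of the receptors, measured 6.44, 7.29 and 7.61 in the 7378K arrays, 7.08, 7.47 and 7.42 in the 2954K arrays, against 6.34, 6.54 and 6.92 in the controls. The 2954K arrays lay above the controls (0.73, adjusted p = 0.37) and the 7378K arrays overlapped them (0.51, adjusted p = 0.37).

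Ripk3, the kinase that commits cells to necroptosis, measured 2.73, 4.30 and 4.27 in the 7378K arrays, 1.38, 4.99 and 2.41 in the 2954K arrays, against 3.15, 3.03 and 3.94 in the controls. Mlkl, the membrane effector, measured 4.53, 1.56 and 3.11 in the 7378K arrays, 5.40, 2.29 and 1.71 in the 2954K arrays, against 3.25, 3.02 and 2.02 in the controls. Fas, a death receptor, ranged from 2.48 to 5.74 under 7378K light, 4.75 to 6.22 under 2954K light and 4.47 to 5.07 in control. All 3 overlapped between groups, and with no intensity filter none passed.

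**Figure D4:**
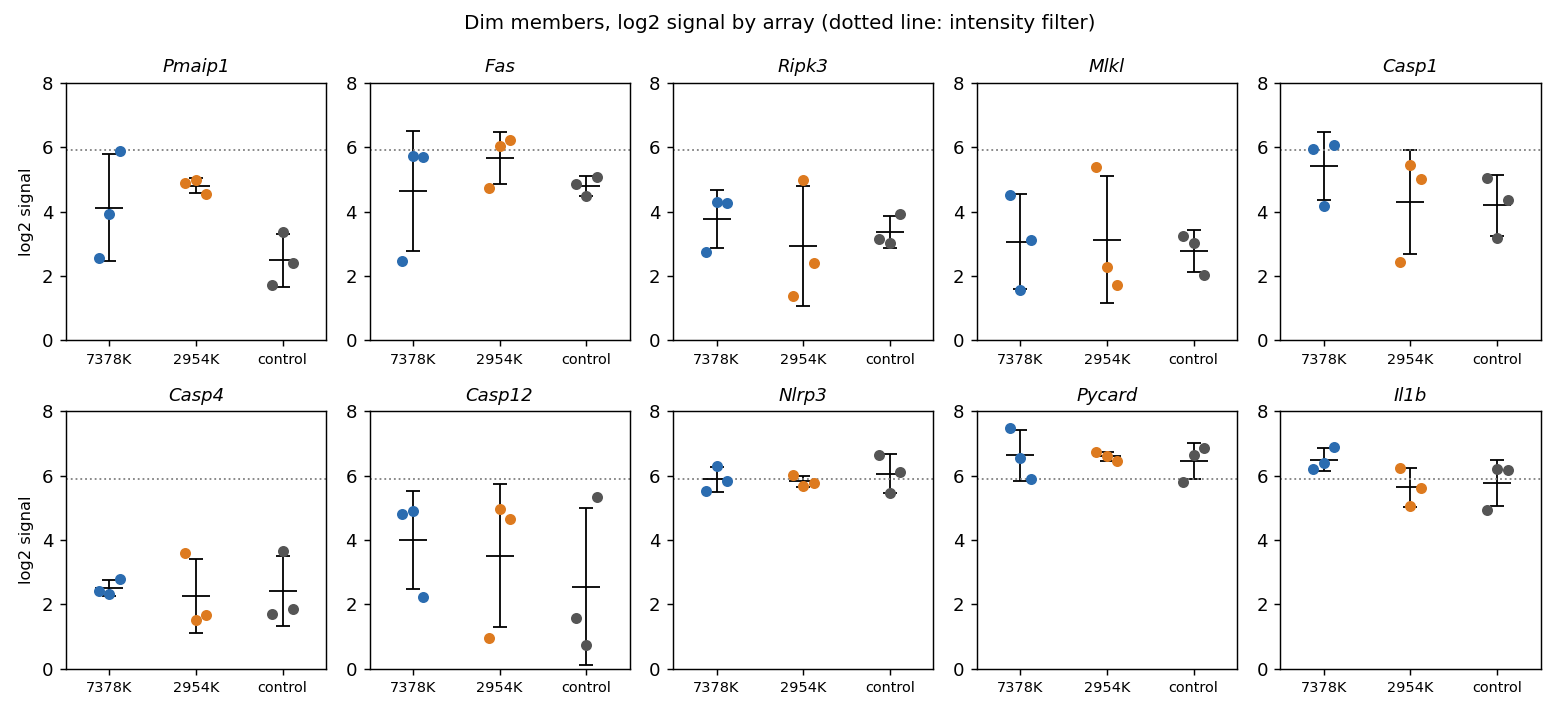
Log2 signal by array of 7 genes below the intensity filter and of Nlrp3, Pycard and Il1b, which lie near it (dotted line at 5.91). Points are arrays and bars mean ± SD (n = 3). The groups overlap in every panel except Pmaip1, where the 2954K arrays lie above the controls.

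No inflammasome gene passed the test in either comparison. Nlrp3, the sensor, measured 5.52, 6.30 and 5.84 in the 7378K arrays, 6.01, 5.68 and 5.77 in the 2954K arrays, against 6.64, 5.45 and 6.11 in the controls. Pycard, the adaptor, measured 7.47, 6.54 and 5.90 in the 7378K arrays, 6.75, 6.61 and 6.46 in the 2954K arrays, against 5.81, 6.66 and 6.87 in the controls. Neither showed separate groups. Their differences were -0.18 and 0.19 for 7378K and -0.25 and 0.16 for 2954K. The 95% confidence intervals for 7378K ran from -1.12 to 0.75 and from -0.73 to 1.12. Only the control mean of Nlrp3, 6.07, was above the intensity filter, against 5.89 for 7378K and 5.82 for 2954K. Nlrp3 thus entered the test through its control arrays, and its being counted below 0 is a description only.

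Il1b, the cytokine matured by caspase 1, measured 6.20, 6.39 and 6.89 in the 7378K arrays, 6.25, 5.05 and 5.62 in the 2954K arrays, against 4.94, 6.21 and 6.19 in the controls. Its difference was 0.71 (95% confidence interval -0.34 to 1.76) for 7378K and -0.14 (-1.19 to 0.92) for 2954K. Only its 7378K mean, 6.49, was above the intensity filter, against 5.64 for 2954K and 5.78 in control. Il1b thus entered the test through its 7378K arrays, and its being counted above 0 is a description only. Il18, the second such cytokine, was brighter and steadier, at 9.63, 9.60 and 9.27 in the 7378K arrays, 9.62, 9.49 and 9.54 in the 2954K arrays, against 9.31, 9.34 and 9.67 in the controls. Its difference was 0.06 (-0.24 to 0.37) for 7378K and 0.11 (-0.20 to 0.42) for 2954K.

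Casp1 was dim, at 5.95, 4.18 and 6.07 in the 7378K arrays, 2.44, 5.44 and 5.01 in the 2954K arrays, against 5.04, 3.18 and 4.36 in the controls. Casp4, the sensor caspase of the non-canonical inflammasome in mice, stayed between 1.52 and 3.66 on all 9 arrays, and Casp12, a caspase linked to endoplasmic reticulum stress in mice, between 0.74 and 5.33. Over 17 of 18 microglia and macrophage markers found on the array, the summed linear signal was 9786 to 10795 in the 7378K arrays, 9097 to 9590 in the 2954K arrays, against 2937 to 4070 in the controls. Of the 13 above the filter, 8 rose in each comparison (61.5%, beside 2.36% of all genes for 7378K and 1.03% for 2954K). Some of the 13, among them Aif1 and C1qc, had control means below the filter (5.35 and 5.02). These entered the test through their LED arrays, so that their being counted is a description only.

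Markers of other retinal cells also differed. Of 7 Mueller glia markers, 3 rose for 7378K (42.9%, beside 2.36% of all genes) and 2 for 2954K (28.6%, beside 1.03%). In each comparison 5 of the 7 lay above 0 (71.4%, beside 56% for 7378K and 51.8% for 2954K). The 2 below control in both were Glul and Rlbp1. Glul averaged 14.19 for 7378K and 14.13 for 2954K, against 14.20 in control, and Rlbp1 13.14 and 13.22, against 13.30. The summed signal of the 7 markers was 42415 to 49384 in the 7378K arrays, 40587 to 45839 in the 2954K arrays, against 38285 to 40764 in the controls. Of the 7 rod markers, 3 fell for 7378K (Prph2, Cngb1 and Rom1, 42.9%, beside 1.16% of all genes). In that comparison 5 of the 7 lay below 0 and 2 above it (28.6%, beside 56% of all genes). The 2 were Gnat1, with a mean of 14.75 against 14.72 in control, and Sag, with 14.90 against 14.88. For 2954K 0 passed in limma, and 2 lay at an unadjusted p under 0.05 (28.6%, beside 13.1% of all genes). The summed rod signal was 119094 to 139780 in the 7378K arrays, 115407 to 148525 in the 2954K arrays, against 133662 to 167454 in the controls, and the groups overlapped. The part of these cells in the values of the listed genes was not tested.

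The calpains, calcium-dependent proteases studied in photoreceptor death, did not pass. Capn2 averaged 9.72 under 7378K light, 9.67 under 2954K light and 9.41 in control (adjusted p = 0.26 and 0.50). Capn1 ranged from 6.67 to 7.21 in the 7378K arrays, from 3.93 to 6.72 in the 2954K arrays and from 6.01 to 7.32 in the controls, with 2954K 2 the lowest array. Its difference had a 95% confidence interval of -0.98 to 1.91 for 7378K and -2.14 to 0.74 for 2954K.

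The third comparison set 7378K against 2954K light directly. None of the 29 genes passed in limma, as with all 12765 genes (0%), and 2 of the 29 (6.9%, beside 4.07% of all genes) had an unadjusted p under 0.05. The groups did not overlap for 5 genes (17.2%, beside 8.55%), and 21 lay above 0 (72.4%, beside 56.4%). The genes with an unadjusted p under 0.05 were Aifm1, lower by 0.28 under 7378K light (95% confidence interval -0.54 to -0.01), and Bbc3, higher by 0.66 (0.02 to 1.30). Both had an adjusted p of 0.98. The difference between the LED groups was 0.19 for Gadd45b (-0.28 to 0.66), -0.20 for Gadd45a (-0.44 to 0.04) and -0.14 for Xiap (-0.36 to 0.07). These intervals do not show that the lights acted alike. The calls of Gadd45a and Xiap under 7378K light alone were therefore not shown to differ from 2954K light.

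A second list of 69 genes of the same pathways was set beside the first, with 62 on the array and 48 above the filter. For 7378K, 1 rose, 1 fell and 46 did not pass (4.17%, beside 3.52% of all genes). For 2954K, 1 rose, 0 fell and 47 did not pass (2.08%, beside 1.22%). The gene that rose in both, Bik, passed the filter only through its LED arrays, so that its being counted is a description only. Without single arrays, 2 to 4 genes were called for 7378K, with Parg and Rnf31 joining without 2954K 1 and Parg and Htra2 without 2954K 2. For 2954K the number was 0 to 2, with 0 without 2954K 3 and Htra2 joining without 2954K 2. The median differences were 0.06 and 0.09. Of its 12 p53 targets 0 passed in limma, with 2 at an unadjusted p under 0.05 for 7378K (16.7%, beside 22.6% of all genes) and 1 for 2954K (8.33%, beside 13.1%).

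Bik, a BH3-only killer protein of the endoplasmic reticulum (chromosome 15, 83526790 to 83544635), measured 7.19, 7.45 and 7.27 in the 7378K arrays, 6.59, 6.57 and 7.12 in the 2954K arrays, against 3.80, 5.01 and 4.52 in the controls. The LED arrays lay far above the controls. The control mean of 4.44 was below the intensity filter, so that the gene entered the test through its LED signal. Its rise is therefore given against the filter value, as at least 2.64-fold for 7378K and at least 1.81-fold for 2954K. The limma adjusted p values, 0.0019 and 0.013, are for the difference from the control mean and not for these bounds. Because of how the gene entered the test, its p values and calls are a description only. Its other 2 probe sets lay below the filter and are not used. The 2954K call ended without 2954K 3 (adjusted p = 0.076), without control 3 and 2954K 3 together (adjusted p = 0.077) and with the 3' minus 5' covariate (adjusted p = 0.063).

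Tnfaip3, a ubiquitin-editing enzyme that restrains NF-kB and receptor-driven death (chromosome 10, 19000910 to 19015410), measured 11.27, 11.20 and 11.38 in the 7378K arrays, 12.06, 11.78 and 11.96 in the 2954K arrays, against 11.98, 12.24 and 12.27 in the controls. The 7378K arrays stood below both other groups. It fell by 0.88 (SE 0.11), or 1.84-fold, under 7378K light (adjusted p = 0.001, and 0.002 with the 3' minus 5' covariate), and differed by -0.23 under 2954K light (adjusted p = 0.41). Against 2954K the difference was -0.65 (95% confidence interval -0.89 to -0.41), with an adjusted p of 0.98 over all genes, so the effects of the lights on it were not shown to differ. The dimmer probe set, at a mean of 7.54, differed by -3.29 for 7378K and -2.49 for 2954K, and the size of the change thus depended on the probe set.

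Other genes of the second list lay further from the threshold. Ngfr, a neurotrophin receptor that can signal death, and Bcl2l2, a survival protein of the BCL2 family, had the smallest unadjusted p among those lower under 2954K light, at -0.61 (adjusted p = 0.17) and -0.28 (adjusted p = 0.33). Between the lights, Tradd, the adaptor of the tumour necrosis factor receptor, was 0.49 higher and Birc6, a large inhibitor of apoptosis, 0.34 higher under 7378K (adjusted p = 0.98 each). Cflar, the decoy of caspase 8, was 0.20 lower there (adjusted p = 0.98).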

How the data were processed

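Retinal RNA was measured on 9 arrays, 3 for each group. The deposited values were read as log2 signals per probe set, since on the linear scale each array then has a 2% trimmed mean of 500, and were not scaled further. MAS5 and affy are named in the submitters' processing notes, with no version, role or order. No detection calls were used, and precision is limited by 3 arrays a group.

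Of 45101 probe sets, 34945 had 1 gene symbol in the platform annotation, 932 had several and 9160 had none. Of these 34945, 34741 were matched by gene identifier to RefSeq (GRCm38.p6). The brightest probe set stood for each gene, and a gene was tested where its mean reached the 40th percentile of probe sets (5.91). limma 3.58.1 in R 4.3.3 (1 mean per group, 6 residual degrees of freedom, eBayes with an intensity trend) gave p values adjusted by Benjamini-Hochberg over 12765 genes, and a gene was called at an adjusted p under 0.05. The fit was also run on simulated data with independent noise in each array and no 3' minus 5' difference between groups. That run cannot show how the fit deals with such a difference. Figures were drawn with matplotlib 3.10.9. The alternatives were other filters, quantile normalisation, other summaries of probe sets, eBayes without trend, a 3' minus 5' covariate, a replicate block and leaving out arrays, each with filter and brightest probe set taken anew.

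Listed genes, pathway and marker lists were chosen with earlier results of these data known. Values in every array were given for each listed gene called, for the 2 with the smallest unadjusted p in each comparison of groups, and, where a probe set was found, for a panel of Bax, Trp53, Ripk1, Bcl2, Bcl2l1, Mcl1, Casp8, Casp9, Cdkn1a, Ripk3, Mlkl, Nlrp3, Pycard, Casp1, Il1b and Il18. Genes of the second list were named where called or, where none was called in a direction, for the 2 smallest unadjusted p. Values in every array of Parp1, Apaf1 and Pmaip1 were added after they were seen.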

Additional observations from a re-analysis of the deposited data

Results flagged for a closer look

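Birc3, an inhibitor of apoptosis that is induced by NF-kB, lay below the intensity filter by its mean and was in none of the main comparisons. It was picked because its signal in all 7378K arrays stood above the filter and above every control. That separation was fixed by the choice and is a description only. Birc3 measured 6.65, 6.45 and 6.43 in the 7378K arrays (mean 6.51 on the log2 scale), 6.16, 3.82 and 6.24 in the 2954K arrays, against 3.25, 3.68 and 3.81 in the controls. The control mean of 3.58 was below the filter of 5.91, so the 7378K mean is given against the filter value, as at least 1.52-fold higher. The 2954K mean of 5.41 was below the filter too, and no fold is given. No test is given for this gene.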

How the results depend on the processing

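Of the listed genes, the number called for 2954K against control was 1 and became 0 when probe sets of a gene were averaged. It was 1 to 4 when single arrays were left out. For 7378K against control it was 3, 1 with the 3' minus 5' covariate, and 1 to 5 without single arrays. For the average of the LED groups it was 2 (Gadd45a and Gadd45b), 4 with quantile normalisation, 1 with the covariate, and 2 to 7 without single arrays. For 7378K against 2954K it was 0 under every alternative run. Over all genes, 2954K gave 156 calls, 82 with the mean of probe sets, 101 without the trend, 102 with the covariate and 81 to 902 without single arrays. For 7378K the count was 449, with 255, 207 and 136 under the same alternatives and 146 to 1528 without single arrays. For both LED groups it was 441, with 245, 265 and 153 and 168 to 1858. For 7378K against 2954K it was 0, and 0 to 29 without single arrays, the 29 without 2954K 1.

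Same-numbered arrays of different groups had deviations that correlated at 0.061 to 0.332, and differently numbered ones at -0.265 to 0.092. The same-numbered values were not all above 0.1, so the numbers were not taken as pairs. In 16 of 18 cases, however, the best match had the same number. The main fit takes no account of what same-numbered arrays share. With the replicate block the listed genes called numbered 1 for 2954K, 4 for 7378K (Mcl1, Bad, Gadd45a and Gadd45b), 0 for 7378K against 2954K and 4 for both LED groups, and all genes called 163, 638, 0 and 622. In the second list, Bik fell out under the stricter filter and the mean of probe sets because its mean was then too low to be tested. No called direction of a listed gene reversed under the alternatives run. For the other changes the cause was not tested.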
